A study of Homo sapiens with 18 samples.

Results

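The genes described here are 9 established targets of the microRNA miR-21: PDCD4, RECK, TPM1, SPRY1, NFIB, BMPR2, PELI1, YOD1 and KRIT1. They were picked by name from the literature on miR-21, and each was found as a single row among the 58302 genes of the table. The messenger RNA came from TPC1, a cell line of human papillary thyroid carcinoma, and from D11, a Dicer1 (+/-) derivative of TPC1 made by CRISPR-Cas9. D11 is 1 clone, so the clone and its genotype cannot be told apart. In each line, there was a non-transfected group (NT), a group given a negative control siRNA (NC) and a group given an siRNA against Dicer1 (siDicer). Both siRNAs were used at 5 nM and RNA was taken on day 4. Each of the 6 groups had 3 libraries, 18 altogether, and NT plus NC served as the control group of a line, with 6 libraries. The libraries held 11.3 to 23.2 M reads, with a median of 15.9 M. Values are reads per 20 M aligned reads, a scale on which 1 read was worth 0.861 to 1.77. For 12 of the 18 samples the title and the description name different groups. The groups used here follow the descriptions, which are also the names of the data columns. The study's methods describe independent repeats of its experiments in general, but no label ties a library to a culture, so p-values measure the spread between these libraries, part of which may be technical.

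MicroRNAs are short RNAs cut from hairpin precursors by the enzyme Dicer. A microRNA guides the Argonaute complex to the 3′UTR of messenger RNAs that pair with its seed, bases 2 to 8 of the mature strand, and such messengers are translated less or decay faster. miR-21 is abundant in many carcinomas, papillary thyroid carcinoma included, and is known for repressing inhibitors of growth, invasion and survival signalling. Its classical targets include the tumour suppressor PDCD4 and the invasion inhibitor RECK.

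The mature strand of miR-21 is shown first because every target site below is read against it. The sequence is that of RefSeq on GRCh38.p14, at chr17:59841273-59841294 on the plus strand, with the seed in capitals.
hsa-miR-21-5p: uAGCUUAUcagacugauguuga

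The 3′UTR of the MANE Select transcript of each gene was searched on the transcript strand for 4 seed matches. These were the 8mer ATAAGCTA, the 7mer-m8 ATAAGCT, the 7mer-A1 TAAGCTA and the 6mer TAAGCT, and each position was counted once, as its longest match. The longest match of each gene is printed below as 22 bases of the messenger in DNA letters, 5′ to 3′, with the letters that match the seed in capitals.
PDCD4: agtggaatattctaATAAGCTA
RECK: tttcacagtttgaaATAAGCTA
TPM1: caaataaacactgtgTAAGCTA
SPRY1: gtttaattgcttaaATAAGCTA
NFIB: ttaatatttgcatgATAAGCTA
BMPR2: tggacaggagaaacATAAGCTA
PELI1: tacattataaatttATAAGCTA
YOD1, first site: ctctgggttttccaATAAGCTA
YOD1, second site: aacacttgatttgaATAAGCTA
KRIT1, first site: tatataatatcctcATAAGCTA
KRIT1, second site: tgaatgtgctattcATAAGCTA

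On GRCh38 these windows lie in 3′UTR exons at chr10:110898316-110898337 (PDCD4), chr9:36124169-36124190 (RECK), chr15:63066072-63066093 (TPM1), chr4:123402952-123402973 (SPRY1) and chr2:202567242-202567263 (BMPR2) on the plus strand. Those of the other genes are on the minus strand, at chr9:14087860-14087881 (NFIB), chr2:64094659-64094680 (PELI1), chr1:207048949-207048970 and chr1:207045072-207045093 (YOD1), and chr7:92200235-92200256 and chr7:92199459-92199480 (KRIT1). An 8mer was present in 8 of the 9 genes, against 2.45% of the 19084 genes with a 3′UTR, and a 7mer or an 8mer in 9 of 9, against 12.8%. TPM1 was the exception, with a 7mer-A1 in a 3′UTR of 279 bases. None of the 19 coding TPM1 transcripts with an annotated 3′UTR held an 8mer, and 5 held a 7mer. BMPR2 had the most matches, 7 in a 3′UTR of 7803 bases, and YOD1 had 4 in 5171 bases. RECK, SPRY1 and PELI1 had 1 match each. A match is a string of letters, and binding was not measured. The 9 genes were picked as known miR-21 targets, so a high share with a match was built into the choice and tests nothing.

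DICER1, the gene that the siRNA and the CRISPR edit target, was measured first as a check of the labels. In TPC1 it stood at 1582, 1510 and 1397 in NT, 2492, 1901 and 2366 in NC, against 255, 395 and 246 in siDicer. In D11 the values were 655, 1157 and 923 in NT, 1536, 1433 and 1407 in NC, against 297, 451 and 277 in siDicer. All siDicer libraries lay below all control libraries of their line. The log2 change was -2.65 (SE 0.21, limma adjusted p = 0.000337) in TPC1 and -1.77 (SE 0.25, adjusted p = 0.000649) in D11. In both lines siDicer replicate 2 kept the most DICER1. As for cell identity, the thyroid factor PAX8 (7361 to 14886) and the keratins KRT8 and KRT18 (2908 to 13581) were high in all 18 libraries. FOXE1 (61 to 214) and TG (32 to 124) were low, TSHR and SLC5A5 were at 0 to 2, and NKX2-1 was at 0. Of the other epithelial markers, EPCAM, CDH1 and KRT19 were at 0 to 8. Markers of blood and endothelial cells did not exceed 12, and of the fibroblast markers COL1A1 was at 35 to 134 while COL3A1 and DCN were at 0 to 2.

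RECK, TPM1 and BMPR2 rose after siDicer in both lines, by 1.51-fold to 2.43-fold, and the other 6 genes were not called in either line. A call required an adjusted p under 0.05 in limma-trend, with Benjamini-Hochberg adjustment over all genes tested, and a fold change of at least 1.5. In TPC1, 3 of 9 genes were called higher and 0 lower, where 3.22% of the 18475 genes tested were called higher and 4.16% lower. In D11 it was again 3 of 9 higher and 0 lower, beside 5.26% higher and 6.75% lower of 18413 genes. The median log2 change of the 9 genes was 0.21 in TPC1 and 0.28 in D11, against -0.04 over all genes tested in each line. These medians depended on the control. Against NC alone they were -0.05 in TPC1 (4 of 9 genes above 0) and 0.04 in D11 (6 of 9), beside -0.04 and -0.05 over all genes. Against NT alone they were 0.36 and 0.38, beside -0.04 and -0.03. All 9 genes passed the filter on low values in every comparison, which asked that 3 or more libraries reach a value of 10. No member needed 1 group to pass it, since the lowest value of any member in any library was 31. Each value is a share of the RNA of a whole culture, so fewer cells with a transcript and less of it per cell cannot be told apart.

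**Figure D1:**
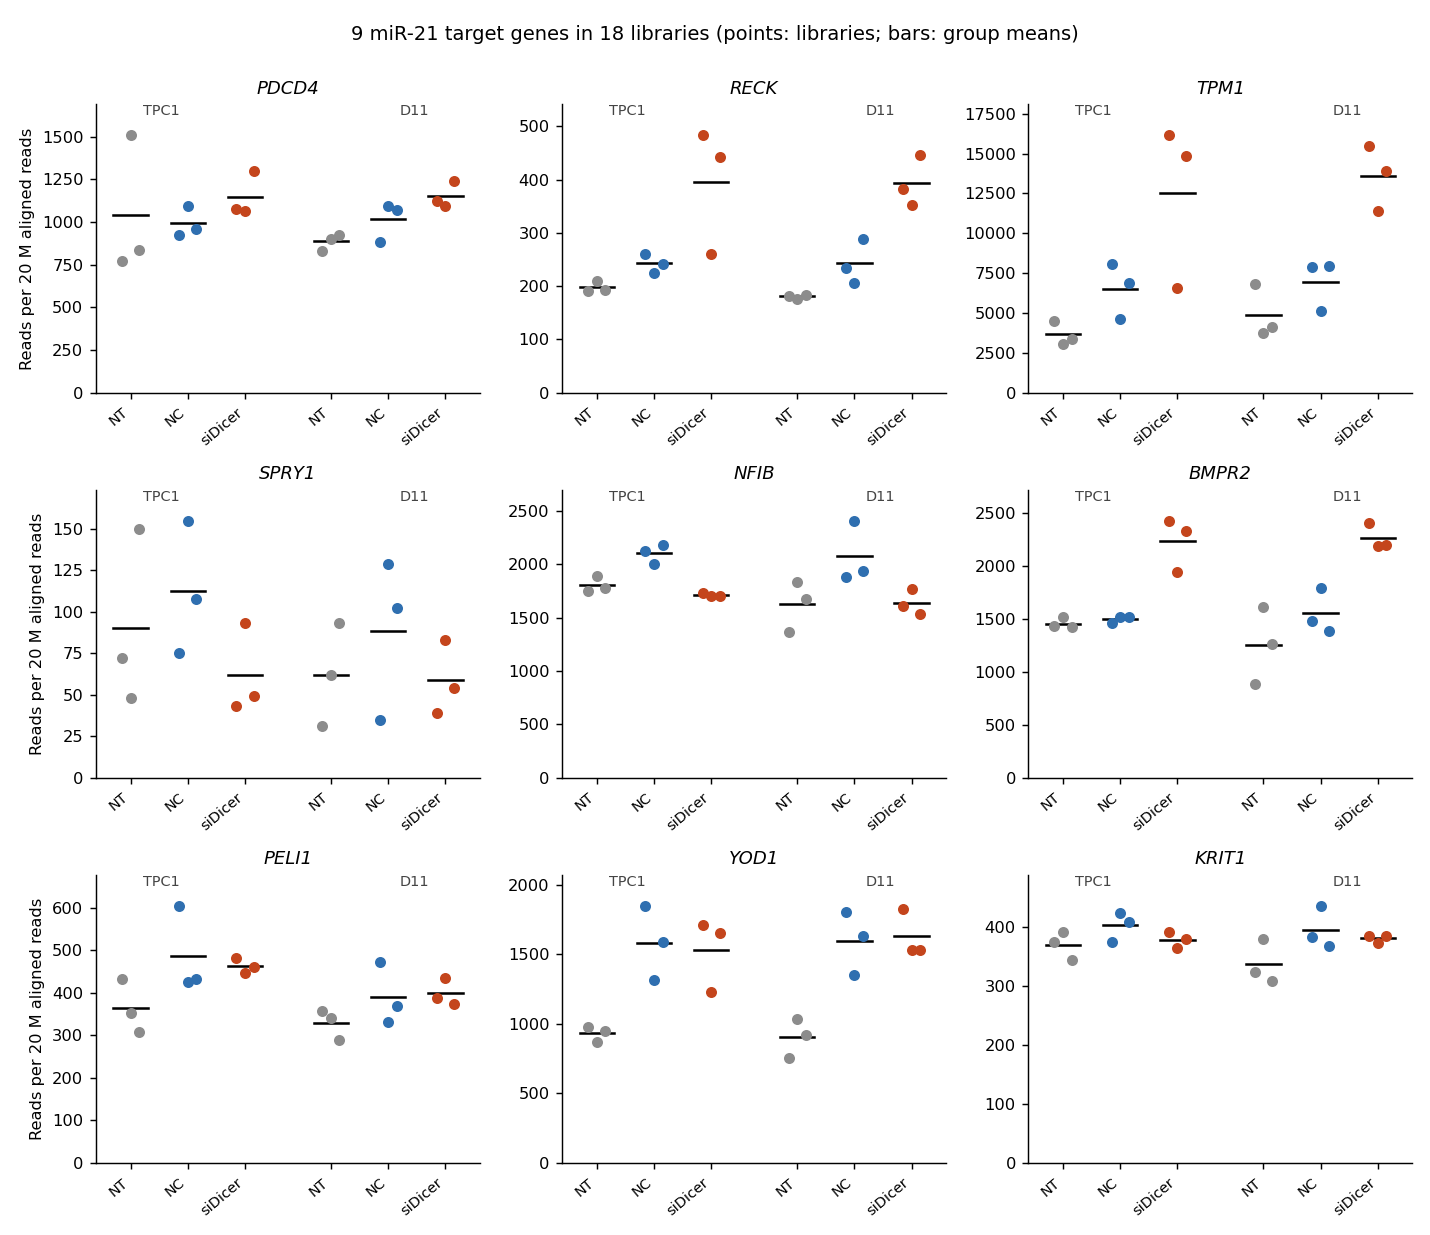
Reads per 20 M aligned reads (vertical axes, starting at 0) of the 9 genes in NT, NC and siDicer libraries of TPC1 and D11. Points are libraries, placed by replicate number, and black bars are means of 3; RECK, TPM1 and BMPR2 are highest in siDicer, while YOD1 is at a similar level in NC and siDicer.

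RECK is a membrane-anchored glycoprotein that inhibits matrix metalloproteinases and so restrains invasion. In TPC1 it was at 191, 209 and 192 in NT, at 261, 225 and 241 in NC and at 483, 260 and 443 in siDicer. In D11 it was at 182, 176 and 183 in NT, at 233, 205 and 289 in NC and at 382, 353 and 446 in siDicer. In D11 all 3 siDicer libraries exceeded every control library. In TPC1 2 of 3 did, and replicate 2, at 260, fell just short of the highest NC library. The mean went from 220 ± 27.9 (SD, n = 6) to 395 ± 119 (n = 3) in TPC1 and from 211 ± 43.5 to 394 ± 47.6 in D11. The log2 change was 0.80 (SE 0.19, adjusted p = 0.0193) in TPC1 and 0.91 (SE 0.16, adjusted p = 0.00248) in D11. In TPC1 the call was lost without siDicer replicate 1 (0.63, adjusted p = 0.120) and without siDicer replicate 3 (0.70, adjusted p = 0.117).

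TPM1 encodes a tropomyosin, which winds along actin filaments and stabilises them. Its TPC1 values were 4522, 3073 and 3376 in NT, 8083, 4616 and 6884 in NC, against 16150, 6585 and 14855 in siDicer. The D11 values were 6792, 3707 and 4101 in NT, 7865, 5118 and 7929 in NC, against 15452, 11421 and 13933 in siDicer. The 3 D11 siDicer libraries again lay above the whole control range. In TPC1, siDicer replicate 2 lay inside it, below 2 of the NC libraries. The mean was 5092 ± 1986 in TPC1 control libraries and 12530 ± 5189 in siDicer, and 5919 ± 1867 and 13602 ± 2036 in D11. This was the largest log2 change among the 9 genes, 1.28 (SE 0.34, adjusted p = 0.0315) in TPC1 and 1.25 (SE 0.23, adjusted p = 0.00273) in D11. The TPC1 call was lost in 5 of the 9 fits that left out 1 library: NT replicate 1 (adjusted p = 0.0619), NT replicate 3 (0.0636), NC replicate 2 (0.0550), siDicer replicate 1 (0.164) or siDicer replicate 3 (0.157). Gene-level values do not separate TPM1 transcripts with a 7mer from those without.

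BMPR2 is the type II receptor for bone morphogenetic proteins, which signal through SMAD proteins. TPC1 held 1429, 1514 and 1425 in NT, 1460, 1514 and 1516 in NC, against 2428, 1942 and 2333 in siDicer. D11 held 889, 1609 and 1260 in NT, 1482, 1795 and 1386 in NC, against 2407, 2184 and 2198 in siDicer. BMPR2 was the only member of the 9 whose siDicer libraries lay above every control library in both lines. The control libraries of TPC1 were close together, at 1476 ± 43.7 (SD, n = 6), against 2234 ± 258 in siDicer. In D11 the means were 1404 ± 312 and 2263 ± 125, with NT replicate 1 the lowest library. The log2 change was 0.59 (SE 0.084, adjusted p = 0.00239) in TPC1 and 0.72 (SE 0.17, adjusted p = 0.0113) in D11. In TPC1 it sat at the fold minimum, and the call was lost without NT replicate 1, NT replicate 3, siDicer replicate 1 or siDicer replicate 3, each with an adjusted p of 0.0268 or less and a log2 change of 0.53 to 0.58. In D11 it was lost without siDicer replicate 1 (0.68, adjusted p = 0.0527).

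In both lines siDicer replicate 2 had the lowest RECK, TPM1 and BMPR2 of the 3 siDicer libraries and the highest DICER1. Whether the DICER1 left in these libraries bears on the 3 genes was not tested. Without siDicer, replicate 2 also had the lowest TPM1 in NT and in NC of both lines. It had the lowest RECK in NC of both lines and in NT of D11, but the highest in NT of TPC1. BMPR2 went the other way, with replicate 2 highest in NT of both lines and in NC of D11. In NC of TPC1 it lay between the others. A group of 3 siDicer libraries lay wholly above the control range for 1 of 9 genes in TPC1 (BMPR2, with a background of 7.62% of genes tested) and for 3 of 9 in D11 (RECK, TPM1 and BMPR2, background 11%). It lay wholly below for 1 of 9 in TPC1 (NFIB, background 9.91%) and 0 of 9 in D11 (background 14.1%).

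PDCD4 and SPRY1, 2 inhibitors of growth signalling, were not called. PDCD4 binds the helicase eIF4A and blocks cap-dependent translation. Its values in TPC1 were 769, 1508 and 838 in NT, 926, 1091 and 960 in NC, against 1074, 1065 and 1301 in siDicer, and NT replicate 2 was the highest of all 9 libraries. The D11 values were 832, 900 and 925 in NT, 880, 1096 and 1069 in NC, against 1123, 1096 and 1241 in siDicer, and no siDicer library fell below a control library. The log2 change of PDCD4 was 0.21 (95% interval -0.20 to 0.61, adjusted p = 0.489) in TPC1 and 0.28 (0.05 to 0.52, adjusted p = 0.0808) in D11. SPRY1, a Sprouty protein that restrains ERK signalling downstream of receptor tyrosine kinases, was the lowest of the 9 genes. It read 72, 48 and 150 in NT, 75, 155 and 108 in NC, against 43, 93 and 49 in siDicer of TPC1. In D11 it read 31, 62 and 93 in NT, 35, 129 and 102 in NC, against 39, 83 and 54 in siDicer. The libraries of every group overlapped with those of the others. The log2 change of SPRY1 was -0.67 (-1.50 to 0.16, adjusted p = 0.258) in TPC1 and -0.24 (-1.16 to 0.68, adjusted p = 0.730) in D11. Both intervals hold a change of more than 1.5-fold downwards, and the D11 interval also holds one upwards.

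YOD1, a deubiquitinase, and PELI1, an E3 ubiquitin ligase of the Toll-like and interleukin-1 receptor pathways, act on the ubiquitin system. YOD1 was at 980, 871 and 946 in NT, at 1850, 1314 and 1591 in NC and at 1712, 1233 and 1653 in siDicer of TPC1. In D11 it was at 756, 1034 and 921 in NT, at 1804, 1355 and 1635 in NC and at 1830, 1535 and 1529 in siDicer. In both lines all NC and all siDicer libraries lay above all NT libraries. Against the joint control group the log2 change was 0.33 (SE 0.23, adjusted p = 0.380) in TPC1 and 0.45 (SE 0.23, adjusted p = 0.193) in D11. PELI1 had values of 432, 353 and 309 in NT, 605, 426 and 432 in NC, against 481, 448 and 462 in siDicer of TPC1. Those in D11 were 358, 340 and 289 in NT, 473, 331 and 369 in NC, against 388, 435 and 373 in siDicer. The siDicer values of PELI1 lay within the range of the control libraries in both lines, with a log2 change of 0.15 (-0.23 to 0.54) in TPC1 and 0.16 (-0.15 to 0.47) in D11.

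NFIB is a transcription factor of the nuclear factor I family, and KRIT1 is a scaffold of cell junctions whose loss causes cerebral cavernous malformations. NFIB was at 1755, 1895 and 1784 in NT, at 2125, 2008 and 2181 in NC and at 1737, 1701 and 1707 in siDicer of TPC1, where the siDicer libraries were below every control library. In D11 it was at 1364, 1833 and 1680 in NT, at 1882, 2412 and 1940 in NC and at 1607, 1773 and 1535 in siDicer, where they were below every NC library but not below NT. The log2 change of NFIB was -0.19 (-0.38 to 0.01, adjusted p = 0.178) in TPC1 and -0.16 (-0.47 to 0.15, adjusted p = 0.461) in D11. KRIT1 had the smallest change of the 9 genes, with values of 375, 391 and 344 in NT, 375, 424 and 409 in NC, against 392, 364 and 379 in siDicer of TPC1. In D11 its values were 323, 380 and 308 in NT, 383, 436 and 368 in NC, against 385, 373 and 385 in siDicer. Its log2 change was -0.03 (-0.24 to 0.18) in TPC1 and 0.07 (-0.20 to 0.33) in D11, and these intervals exclude a change of 1.5-fold in either direction. KRIT1 has a pair of 8mers, as YOD1 does, while RECK and BMPR2 have 1 each.

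**Figure D2:**
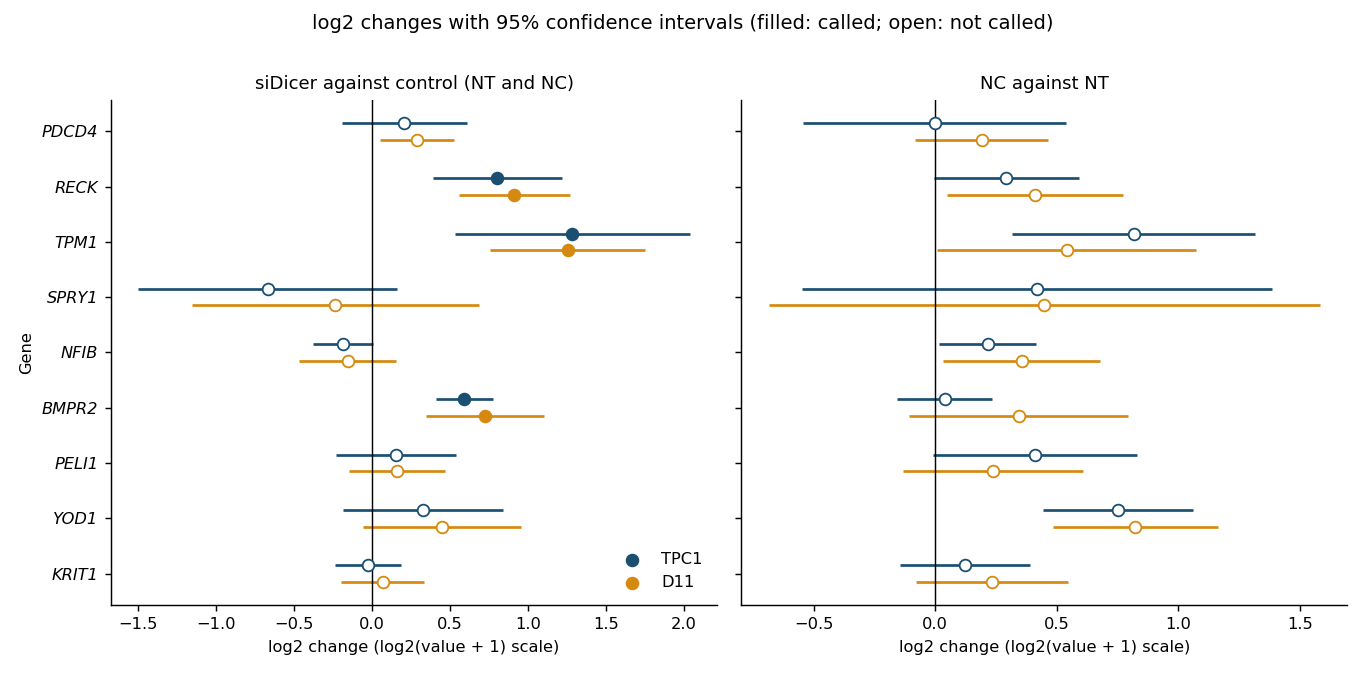
log2 change on the log2(value + 1) scale with its 95% confidence interval for the 9 genes in TPC1 (blue) and D11 (orange), for siDicer against control on the left and NC against NT on the right; filled points are called. RECK, TPM1 and BMPR2 are filled in both lines on the left, and none is filled on the right, where the intervals of YOD1 lie farthest from 0 relative to their width.

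The control group joins NT and NC, so NC was also compared with NT to see whether transfection moved the same genes. These values share libraries with the siDicer comparisons and are set beside them only. The median log2 change of the 9 genes was 0.29 in TPC1, with 8 of 9 above 0, and 0.36 in D11, with 9 of 9 above 0, where the medians of all genes were 0.00 and 0.02. Over all genes with a miR-21 8mer the medians were 0.05 in TPC1 and 0.12 in D11. They were 0.01 and -0.01 for genes without a match. Genes with an 8mer also had longer 3′UTRs, with medians of 3460 and 3455 bases against 891 and 887. Genes with an 8mer of the 7 other microRNAs searched below had medians of 0.02 to 0.09 in TPC1 and 0.10 to 0.17 in D11. Without a replicate block, none of the 9 genes was called by limma-trend in either line, and voom on recovered reads called 0 as well. At an unadjusted p under 0.05 there were 3 genes in TPC1 and 4 in D11. The background of calls over all genes was 0.111% in TPC1 and 0.35% in D11, and 11.1% and 13.6% of genes had such an unadjusted p. YOD1 had a log2 change of 0.75 (SE 0.14, adjusted p = 0.0926) in TPC1 and 0.82 (SE 0.15, adjusted p = 0.0647) in D11. With the replicate number as a block, limma-trend called 2 of 9 genes higher in TPC1 and 1 of 9 in D11, where 1.67% and 1.08% of all genes were called higher. In TPC1 these were TPM1 (0.82, adjusted p = 0.00119) and YOD1 (0.75, adjusted p = 0.00176), and in D11 it was YOD1 (0.82, adjusted p = 0.0210). By the rule given in the processing section, whether the numbers pair the libraries depended, in both lines, on which genes were used to check it. In D11, YOD1 was also called in the unblocked fit without NT replicate 2 (0.93, adjusted p = 0.0490). TPM1 had 0.82 (SE 0.22, adjusted p = 0.223) in TPC1 and 0.54 (SE 0.24, adjusted p = 0.360) in D11, and RECK had 0.29 and 0.41. All 3 NC libraries lay above all 3 NT libraries for RECK, TPM1, NFIB and YOD1 in TPC1 (4 of 9 genes, background 8.2%) and for RECK, NFIB and YOD1 in D11 (3 of 9, background 10.8%). For none of the 9 did they all lie below, a pattern found in 8.33% of genes in TPC1 and 9.03% in D11. The targeted gene itself showed the same order, since all DICER1 values in NC exceeded those in NT, with a log2 change of 0.58 (adjusted p = 0.133) in TPC1 and 0.71 (adjusted p = 0.153) in D11.

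The choice of control library changed which genes were called. Against NC alone, 0 of 9 were called higher in TPC1, where 2.84% of all genes were, and 2 of 9 in D11 (RECK and TPM1), where 3.93% of all genes were. In TPC1 the log2 change against NC was 0.66 (SE 0.23, adjusted p = 0.105) for RECK and 0.87 (SE 0.35, adjusted p = 0.148) for TPM1. For BMPR2 it was 0.57 (SE 0.099, adjusted p = 0.0171) in TPC1 and 0.55 (SE 0.11, adjusted p = 0.00958) in D11, under the fold minimum in both. In D11, RECK had 0.71 (adjusted p = 0.0152) and TPM1 0.98 (adjusted p = 0.00544). Against NT alone, 4 of 9 were called higher in each line, with a background of 3.23% in TPC1 and 8.52% in D11. The added gene was YOD1, with 0.70 (adjusted p = 0.0336) in TPC1 and 0.86 (adjusted p = 0.00277) in D11, while against NC it stood at -0.05 and 0.03. NFIB was lower than NC by 0.29 (adjusted p = 0.0402) in TPC1 and 0.34 (adjusted p = 0.0684) in D11 on the log2 scale, a difference under the fold minimum.

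Libraries were also matched by replicate number, a pairing that is unsettled. RECK, TPM1 and BMPR2 were then higher in siDicer than in NC in 3 of 3 pairs in each line, and NFIB was lower in 3 of 3. The share of all genes with such an order was not counted. In TPC1 the differences on the log2 scale were 0.89, 0.21 and 0.88 for RECK, 1.00, 0.51 and 1.11 for TPM1, and 0.73, 0.36 and 0.62 for BMPR2. In D11 they were 0.71, 0.78 and 0.62 for RECK, 0.97, 1.16 and 0.81 for TPM1, and 0.70, 0.28 and 0.66 for BMPR2. NFIB had -0.29, -0.24 and -0.35 in TPC1 and -0.23, -0.44 and -0.34 in D11. SPRY1 was lower in 3 of 3 pairs in TPC1 (-0.79, -0.73 and -1.12) and had 0.15, -0.63 and -0.91 in D11. YOD1, PELI1 and KRIT1 had differences on both sides of 0 in both lines.

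The next question was whether D11, with its lower DICER1, differed from TPC1 without siDicer. In the 12 control libraries DICER1 was lower in D11 by a log2 change of -0.68 (SE 0.12, adjusted p = 0.00561). None of the 9 genes was called in either direction by limma-trend, 0 had an unadjusted p under 0.05 (9.85% of all genes did), and voom called 0. Of all genes, 1.02% were called. The intervals of 7 of the 9 log2 differences exclude 1.5-fold in either direction, among them RECK (-0.07, 95% interval -0.28 to 0.14), YOD1 (-0.02, -0.24 to 0.20) and KRIT1 (-0.08, -0.26 to 0.10). The difference of TPM1 was 0.24 (-0.14 to 0.62), and that of SPRY1 was -0.49 (-1.25 to 0.27), and these intervals do not.

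The siDicer change itself did not differ detectably between the lines. The interaction of line and condition called 0 of the 9 genes by limma-trend, with 0 at an unadjusted p under 0.05 and 0 by voom. Over all 19181 genes it called 0, and 0.693% had an unadjusted p under 0.05. The D11 change minus the TPC1 change was 0.11 (-0.43 to 0.65) for RECK, -0.03 (-0.97 to 0.91) for TPM1 and 0.13 (-0.30 to 0.56) for BMPR2 on the log2 scale. The interval of TPM1 was the widest of these 3.

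Levels can be compared between genes only per length, here as the value per kb of the MANE Select transcript. In TPC1 control libraries TPM1 was the highest, at 4184 ± 1632 per kb (SD, n = 6). PDCD4 followed at 292 ± 76.2, NFIB at 228 ± 20.6 and YOD1 at 197 ± 62.1, and the ranges of these 3 overlapped. BMPR2 (122 ± 3.62), PELI1 (115 ± 27.2) and KRIT1 (94.7 ± 6.94) came next, and PELI1 overlapped with both of its neighbours. RECK (49.8 ± 6.32) and SPRY1 (38.9 ± 16.9) were the lowest and overlapped with each other. With NT and NC joined, the means had the same order in D11, from 4863 ± 1534 per kb for TPM1 to 47.9 ± 9.86 for RECK and 28.9 ± 15.0 for SPRY1. Within NC libraries alone the order was another. There YOD1 (248 ± 41.9 per kb in TPC1 and 250 ± 35.5 in D11, n = 3) stood above NFIB (245 ± 10.3 and 242 ± 33.9) in both lines, with ranges that overlapped, and PELI1 (131 ± 27.4) stood above BMPR2 (124 ± 2.63) in TPC1. TPM1 was at the top, BMPR2 in the middle and RECK near the bottom in the joined control libraries.

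miR-21 is made from a hairpin within the locus of VMP1, a gene of autophagy, on chromosome 17. The row of the hairpin, MIR21, held values of 0 to 11 in all 18 libraries, a few reads each. These libraries were prepared from poly-A RNA, which does not capture mature microRNAs, so the level of miR-21 was not measured. VMP1 was at 3297, 4699 and 3279 in NT, at 3343, 4276 and 3139 in NC and at 2586, 2937 and 2474 in siDicer of TPC1. In D11 it was at 2938, 3492 and 3410 in NT, at 2995, 3615 and 3226 in NC and at 2703, 2479 and 2438 in siDicer. All siDicer libraries lay below all control libraries. VMP1 had a log2 change of -0.45 (SE 0.14, adjusted p = 0.0494) in TPC1 and -0.37 (SE 0.092, adjusted p = 0.0137) in D11, under the fold minimum for a call. The hairpin and VMP1 overlap on the same strand.

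A further 38 genes reported as miR-21 targets were read from a list of such targets. In TPC1 36 of them passed the filter, of which 5 were called higher and 1 lower, with a median log2 change of 0.20. In D11 35 passed, 9 were called higher and 1 lower, and the median was 0.23. The backgrounds are those given above for the same comparisons. TIMP3 and SERPINB5 were too low to test in both lines and PAIP2B in D11. The genes called higher in both lines were DUSP10, RHOB, ARHGAP24, PIK3R1 and TGFBR2, and PPIF was lower in both.

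DUSP10, a phosphatase that switches off p38 and JNK, went from 655 ± 213 to 2543 ± 1049 in TPC1 and from 809 ± 439 to 2955 ± 745 in D11. Its log2 change was 1.91 (SE 0.31, adjusted p = 0.00420) and 2.00 (SE 0.35, adjusted p = 0.00212). RHOB, a small GTPase of the actin cytoskeleton, rose by 1.90 (SE 0.31, adjusted p = 0.00454) and 1.83 (SE 0.20, adjusted p = 0.000181). ARHGAP24, a GTPase-activating protein for Rac, rose by 0.87 (SE 0.10, adjusted p = 0.00102) and 0.99 (SE 0.17, adjusted p = 0.00222). PIK3R1, the regulatory subunit of PI3-kinase, rose by 0.67 (SE 0.14, adjusted p = 0.0109) and 0.91 (SE 0.19, adjusted p = 0.00487). PPIF, the mitochondrial cyclophilin, fell from 5667 ± 929 to 3169 ± 195 in TPC1 and from 6295 ± 1243 to 3275 ± 459 in D11, with log2 changes of -0.82 (SE 0.14, adjusted p = 0.00453) and -0.93 (SE 0.15, adjusted p = 0.00158). TGFBR2 is the type II receptor for TGF-beta, as BMPR2 is for bone morphogenetic proteins. It rose by 0.66 (SE 0.14, adjusted p = 0.0128) and 0.81 (SE 0.22, adjusted p = 0.0180).

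These genes were also set against NC alone, a comparison chosen after their values were seen. There 4 of 36 further targets were called higher and 2 lower (PPIF and MATN2) in TPC1, where 2.84% and 3.09% of all genes were, and 6 of 35 higher and 1 lower in D11, where 3.93% and 4.93% were. The medians were 0.16 and 0.15. TGFBR2 was no longer called in either line, since its log2 change of 0.48 (SE 0.10, adjusted p = 0.0287) in TPC1 and 0.49 (SE 0.093, adjusted p = 0.00827) in D11 lay under the fold minimum. BTG2 and PLEKHA1, called in D11 against the joint control, were not called either. DUSP10, RHOB, ARHGAP24, PIK3R1 and PPIF kept their calls in both lines. DUSP10 had 1.67 and 1.73, RHOB 1.49 and 1.56, ARHGAP24 0.80 and 0.81, PIK3R1 0.60 and 0.68, and PPIF -0.93 in each line. NC itself stood above NT, without a call, by a median of 0.13 over the further targets in TPC1 and 0.25 in D11. For TGFBR2 that log2 difference was 0.37 and 0.65, and for RHOB 0.82 and 0.53. Against NT alone, 10 of 35 further targets were called higher and 1 lower in TPC1, where 3.23% and 2.74% of all genes were. In D11 12 of 35 were called higher and 2 lower, where 8.52% and 8.63% of all genes were. The medians against NT alone were 0.16 and 0.30.

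**Figure D3:**
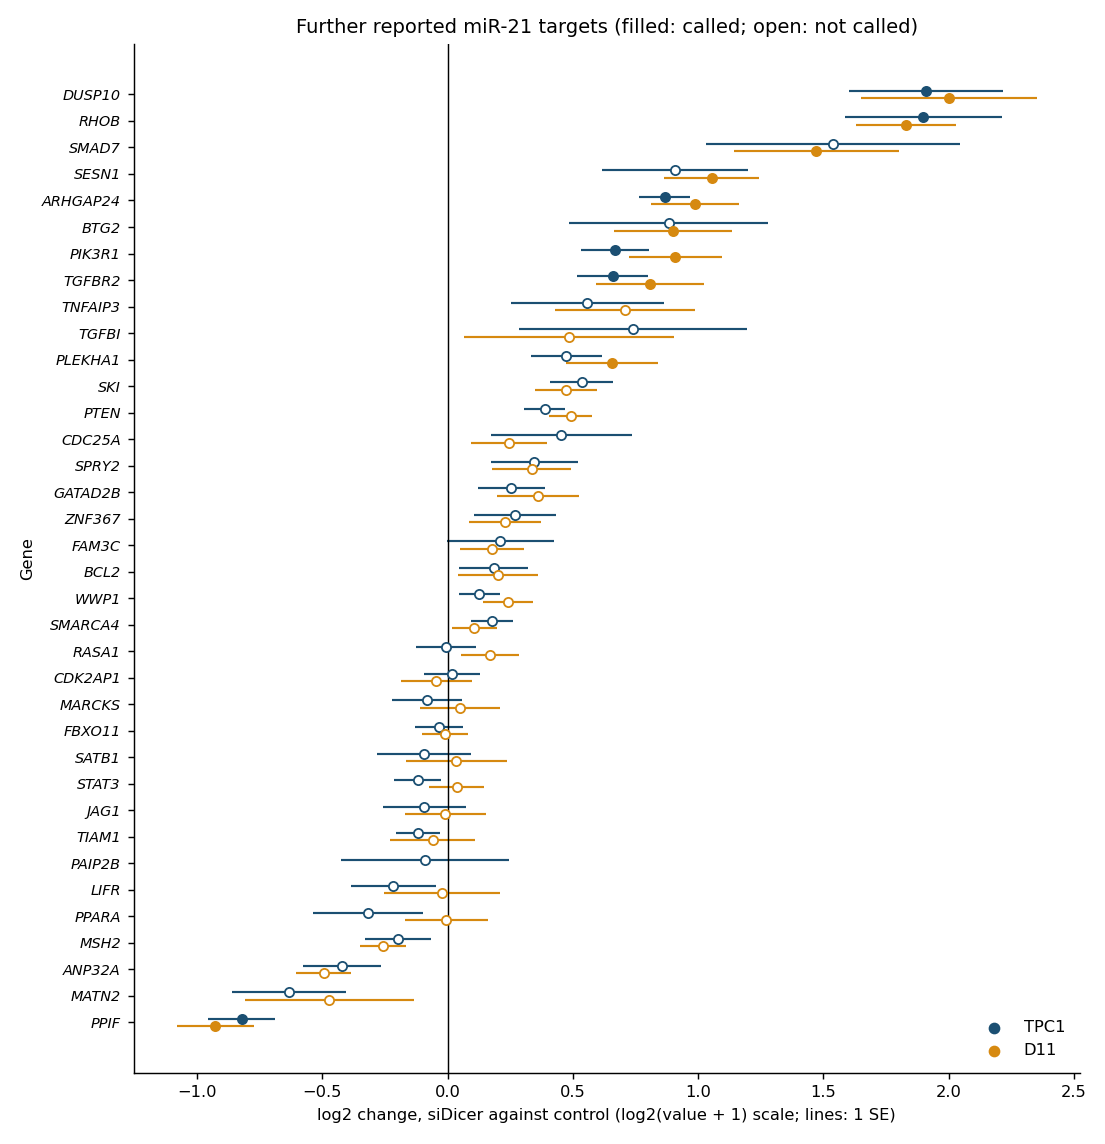
log2 change of siDicer against control, on the log2(value + 1) scale, for the further reported miR-21 targets that were tested, ordered by the mean of TPC1 (blue) and D11 (orange). Lines are 1 SE and filled points are called; DUSP10 and RHOB are at the top near 2 in both lines and PPIF at the bottom.

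The same genes were then grouped by their best seed match. Of the 38 genes, 19 had an 8mer in the MANE Select or canonical 3′UTR, 10 a 7mer-m8, 6 a 7mer-A1 and 3 no match. In TPC1 1 of 17 tested genes with an 8mer was called higher (ARHGAP24), 3 of 10 with a 7mer-m8 and 1 of 6 with a 7mer-A1. In D11 the counts were 3 of 16, 3 of 10 and 3 of 6. Of the 3 genes without a match, 0 were called in each line. Of all tested genes with an 8mer, a 7mer-m8 or a 7mer-A1 as best match, 8.77%, 4.23% and 3.48% were called higher in TPC1. In D11 these shares were 11.4%, 7.84% and 7.55%. PPIF, the gene that fell, has a 7mer-m8. Medians by class were 0.25, 0.05 and 0.63 in TPC1 and 0.24, 0.14 and 0.69 in D11. For the 3 genes without a match they were -0.08 and 0.05.

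Calls were also counted over all genes with a 3′UTR by their best miR-21 match. In TPC1 32 of 365 genes with an 8mer were called higher (8.77%) and 22 lower (6.03%). Among the 9475 genes without any match these shares were 3.16% and 4.39%. In D11 41 of 360 were called higher (11.4%) and 6.11% lower, against 5.13% and 7.37% of 9437. The medians moved little, to 0.00 with an 8mer and -0.04 without a match in TPC1 and to 0.03 and -0.07 in D11. Genes with an 8mer had longer 3′UTRs, with a median of 3455 bases against 886 in TPC1, and the share called higher also rose with length among genes without a match. Up to 500 bases 0 of 10 genes with an 8mer were called higher in each line, and from 500 to 1000 bases 0 of 18 in TPC1 and 0 of 20 in D11. Within 1000 to 2000 bases the shares called higher were 14.5% of 55 genes with an 8mer and 3.74% without a match in TPC1, and 16.7% of 54 and 6.10% in D11. Within 2000 to 4000 bases, where PELI1 lies, they were 10.3% of 126 and 5.22% in TPC1, and 13.7% of 124 and 8.36% in D11. Above 4000 bases, where NFIB, BMPR2 and YOD1 lie, they were 7.05% and 6.39% in TPC1 and 9.87% and 11.4% in D11. These are shares of genes and carry no test.

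**Figure D4:**
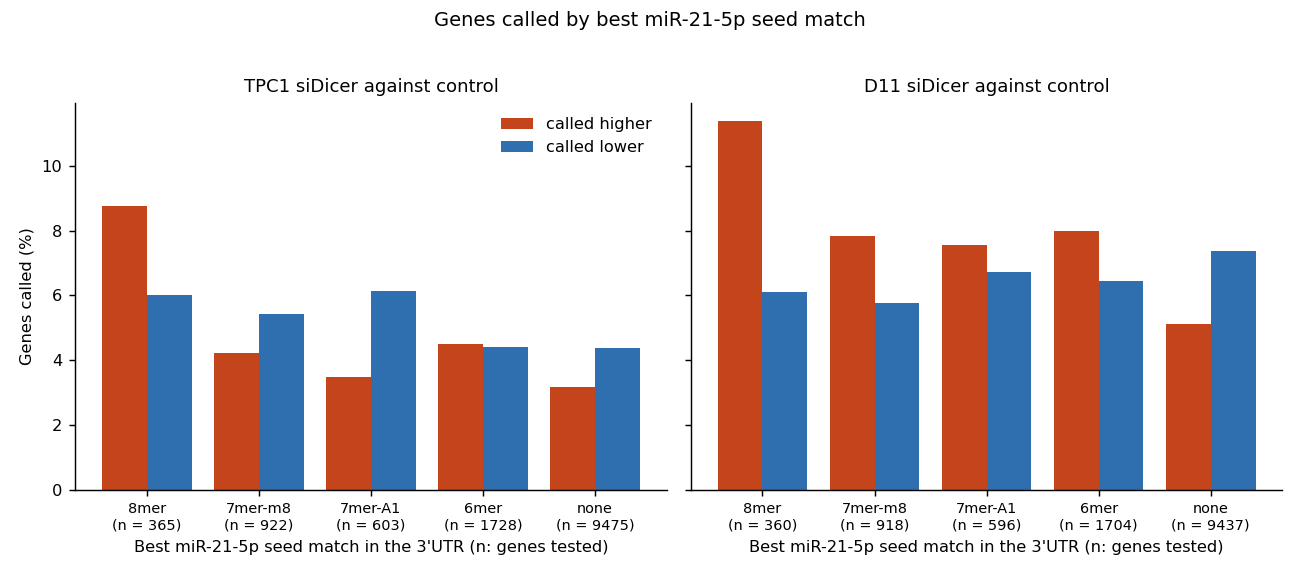
Percentage of tested genes called higher (red) and lower (blue) after siDicer, by the best miR-21-5p seed match in the 3′UTR, in TPC1 (left) and D11 (right), with the number of genes under each class. The 8mer class has the highest share called higher in both lines, 8.77% and 11.4%, and also longer 3′UTRs than the class without a match.

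The same search was made for 7 other microRNAs. The share of genes with an 8mer called higher ran from 4.39% for miR-26a-5p to 6.29% for miR-29a-3p in TPC1, and from 7.88% for miR-26a-5p to 11.1% for miR-221-3p in D11, beside 8.77% and 11.4% for miR-21-5p. Other measures gave another order. The median log2 change of genes with an 8mer was 0.10 and 0.12 for miR-29a-3p, 0.07 and 0.09 for miR-16-5p and -0.02 and 0.03 for miR-26a-5p, against 0.00 and 0.03 for miR-21-5p. The share with a change above 0 was 50.7% in TPC1 and 54.7% in D11 for miR-21-5p, and 61.2% in both lines for miR-29a-3p. The share called lower was 3.83% to 6.07% for the others in TPC1 and 3.87% to 6.83% in D11, beside 6.03% and 6.11% for miR-21-5p. Several of the 9 genes also match these seeds. RECK and YOD1 each hold an 8mer for miR-16-5p, miR-30a-5p and miR-221-3p, KRIT1 holds one for miR-26a-5p, and YOD1 holds one for let-7a-5p and one for miR-17-5p. TPM1, whose change was the largest, had no 7mer or 8mer for any of the 7 in its MANE Select 3′UTR of 279 bases. Its coding transcripts have 3′UTRs of 18 to 3493 bases, and only the MANE Select one was searched for the 7. siDicer lowers the enzyme that makes all of these microRNAs, so their parts cannot be told apart here.

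The genes most like the 3 that rose were sought among 12507 others with a mean of at least 100, by Pearson correlation of log2(value + 1) over the 18 libraries, which share the conditions and are not independent. For RECK these were DAAM1 (r = 0.98), PHLDB1 (0.97) and STK40 (0.97). For TPM1 they were ANKRD46 (0.99), AC079328.3 (0.99) and RCAN1 (0.98). For BMPR2 they were PPP1R12B (0.97), DCBLD1 (0.97) and RBFOX2 (0.97). AC079328.3 is a lncRNA annotated on the opposite strand of the TPM1 locus, and how the read counting treated strand is not given in the sources used here, so its reads and those of TPM1 may not be separate. Of the 9 genes, 8 overlap another annotated gene, 7 of them on the opposite strand. SPRY1 overlaps none and RECK only a small RNA on its own strand. YOD1 overlaps PFKFB2, PDCD4 overlaps BBIP1 and KRIT1 overlaps ANKIB1, each on the opposite strand, and these values carry the same uncertainty.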

How the data were processed

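Libraries were prepared from poly-A RNA with a stranded kit. Per the study's methods, the authors aligned reads to GRCh38 with STAR 2.5.3a, used HTSeq 0.9.1 with Ensembl release 90 to count reads per gene, and brought all libraries to 20 M aligned reads. The deposited table holds these normalised values, a score rounded up to whole numbers and not raw counts. The column totals were 20010707 to 20018484. The value of 1 read was recovered from the spacing of the values. It gave the depths, and whole reads were recovered for 99.7% to 99.9% of values in the libraries where 1 read is worth more than 1.

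The analysis used log2(value + 1), a scale that understates changes of low genes, for genes that reached a value of 10 in 3 or more libraries of a fit, and limma 3.58.1 (lmFit, eBayes with trend) in R 4.3.3 with Benjamini-Hochberg adjustment. Calls needed both an adjusted p under 0.05 and a change of 1.5-fold or more. The study names edgeR, which needs counts and was not used. siDicer was tested against NT and NC of its line, NC against NT, D11 against TPC1 without siDicer, adjusting for transfection, and line by condition over 18 libraries. Scripts were tested on simulated data. Seed matches were read from 1 transcript per gene of GENCODE release 44 (MANE Select, canonical or longest 3′UTR) and from RefSeq mature sequences.

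The members, gene lists and tests were chosen with earlier results of these data known. Named genes were the 9 members, DICER1, VMP1 and MIR21, the further targets called the same way in both lines (at most 4 each way, to which TGFBR2 was added after its values were seen), and the 3 genes most correlated with each called member. Deviations from group means of libraries with the same replicate number were correlated, and numbers were to be read as pairs where 9 of 9 correlations exceeded 0.1. Over the genes of the main filter this held in D11 (0.108 to 0.504) but not in TPC1 (8 of 9, lowest 0.0994). Over genes with a mean of at least 100 it held in TPC1 (0.115 to 0.678) but not in D11 (8 of 9, lowest 0.064). Pairing is therefore unsettled, and blocked values are given beside the results they change. What a number stands for is not labelled. Alternatives were TMM and RLE scaling, filters, pseudocounts of 0.1 and 10, no fold minimum, NT or NC alone, a replicate block, 1 fit of 18 libraries, leaving out each library and, chosen after seeing the data, voom on recovered reads and, for the further targets, NT or NC alone. No 2 libraries of a group agreed within sampling noise. Of the cell type markers, 1 gene is not reported here.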

Additional observations from a re-analysis of the deposited data

Results flagged for a closer look

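Each of the 9 genes was checked for a library far from the others in the 6 control libraries of each line, 18 checks in all, by Dixon's criterion. None exceeded it. The interaction of line and condition passed no adjusted threshold for any of the 9 genes.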

How the results depend on the processing

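RECK, TPM1 and BMPR2 were called higher in both lines under TMM and RLE scaling, both other pseudocounts, both other filters, no fold minimum, the replicate block, 1 fit of all 18 libraries and voom. With NC alone as control the count in TPC1 was 0, with the values given in the report, and the fits without 1 library gave 0 to 3 calls in TPC1, and in D11 2 to 3. NC against NT gave 0 to 1 in D11 when leaving out 1 library. With the replicate block, NC against NT gave 2 calls in TPC1 (TPM1, adjusted p = 0.00119, and YOD1, adjusted p = 0.00176) and 1 in D11 (YOD1). The block changed no other call of the 9 genes. Whether the numbers pair the libraries depended on the gene filter of the check: 8 of 9 correlations exceeded 0.1 in TPC1 and 9 of 9 in D11 with the main filter, and 9 of 9 and 8 of 9 with a mean of at least 100. In the fit of all genes, the block took the TPC1 NC against NT calls from 6 higher and 14 lower to 300 and 265, and those of D11 from 27 and 36 to 195 and 120.

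Under the alternatives run, each value that changed sign was one with no call. In siDicer against control they were KRIT1 in TPC1 with NT alone (0.0334), RLE (0.0107) and TMM (0.0012), PELI1 (-0.0537) and YOD1 (-0.0495) in TPC1 with NC alone, KRIT1 in D11 with NC alone (-0.0507) and NFIB in D11 with NT alone (0.0194). In NC against NT it was PDCD4 in TPC1 with RLE (0.00097). In the interaction they were BMPR2 (-0.0223), NFIB (-0.0420), PDCD4 (-0.0169) and TPM1 (0.11) with NC alone, and PELI1 with NT alone (-0.0797) and voom (-0.0041). Leaving out 1 library gave ranges across 0 for SPRY1 in D11 siDicer (-0.52 to 0.0184) and PDCD4 in TPC1 NC against NT (-0.18 to 0.30). Between D11 and TPC1 controls these were BMPR2 (-0.18 to 0.0115), PDCD4 (-0.14 to 0.0786) and YOD1 (-0.0806 to 0.0388). In the interaction they were NFIB (-0.0563 to 0.11), PDCD4 (-0.0421 to 0.17), PELI1 (-0.0996 to 0.0938), RECK (-0.17 to 0.28), TPM1 (-0.44 to 0.21) and YOD1 (-0.0298 to 0.24). The causes were not tested.

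SPRY1, at 31 to 155, has the least depth, and its intervals are the widest.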
